A study of Mus musculus with 12 samples.

Results

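The 10 genes described here belong to the KEAP1-NRF2 antioxidant pathway: Nfe2l2, Keap1, Gclm, Gclc, Slc7a11, Txnrd1, Srxn1, Prdx1, Nqo1 and Sod2. They were taken by gene symbol from 12 tables of RNA-seq counts, and are 10 of 52553 features in those tables. The libraries were made from CD115+ monocytes of male C57BL/6 mice, and the comparison asks how these cells differ between blood and spleen and after liver resection. CD115 is the receptor for macrophage colony-stimulating factor, and the cells were taken by magnetic sorting from mononuclear fractions. There were 4 groups of 3 libraries: spleen and blood monocytes of intact animals, and spleen and blood monocytes taken 24 h after 70% of the liver mass had been resected (PH70% 24 h). The spleen was left in place in all 4 groups, and each library was pooled from 5 mice. The control libraries are labelled as from intact animals, and whether these had the sham operation that the study's methods describe is not stated. Spleens were additionally treated with collagenase and red cell lysis before the gradient, which the blood protocol does not mention, so tissue and preparation cannot be told apart.

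NRF2, the protein of Nfe2l2, is a transcription factor that is bound in the resting cell by KEAP1, which passes it to the proteasome through a ubiquitin ligase. Oxidants and electrophiles modify cysteines of KEAP1, newly made NRF2 then escapes degradation, and it binds with a small MAF protein to antioxidant response elements near its target genes. Because this control acts on the protein, the level of Nfe2l2 RNA is not a measure of NRF2 activity. The other 8 genes encode enzymes and a transporter that make glutathione, keep thioredoxin and peroxiredoxin reduced, or remove quinones and superoxide. Most of them are well known NRF2 targets, while Sod2 is also a classic target of NF-kB. Monocytes and macrophages make oxidants to kill microbes and use these systems to protect themselves.

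Promoter windows show where the letters of an antioxidant response element core occur in these genes. RefSeq windows of assembly GRCm38.p6, running from 250 bases before to 50 bases after a transcription start, were held for 9 of the 10 genes, with 3 windows for Txnrd1 and 1 for each of the others, and Gclc had none. The core TGACNNNGC was searched on both strands and was found in 5 of 11 windows, those of Nfe2l2, Gclm, Srxn1, Prdx1 and the second window of Txnrd1. It occurred in 12.4% of all 32851 promoter windows. The AP-1 motif TGANTCA was found in the windows of Srxn1 and Prdx1 and in 7.81% of all windows. In Prdx1 the core match TGACTCAGC overlaps an AP-1 match, and in Srxn1 it lies apart from both AP-1 matches. The windows below are those of the 5 genes that rose in blood monocytes after resection. Gclm, Txnrd1 and Srxn1 hold the core, in capitals (on the reverse strand in all 3, so that it reads as the reverse complement), and Slc7a11 and Sod2 do not. Only this pattern was searched, so elements that fit a wider pattern or lie outside the windows are not covered.
Gclm, chr3:122245307-122245606, plus strand: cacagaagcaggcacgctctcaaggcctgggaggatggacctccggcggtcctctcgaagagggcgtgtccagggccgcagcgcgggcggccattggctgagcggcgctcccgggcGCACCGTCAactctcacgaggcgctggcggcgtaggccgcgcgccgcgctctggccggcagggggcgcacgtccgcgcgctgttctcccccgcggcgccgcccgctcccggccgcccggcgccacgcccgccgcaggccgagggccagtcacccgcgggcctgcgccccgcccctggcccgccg
Txnrd1, second window, chr10:82858956-82859255, plus strand: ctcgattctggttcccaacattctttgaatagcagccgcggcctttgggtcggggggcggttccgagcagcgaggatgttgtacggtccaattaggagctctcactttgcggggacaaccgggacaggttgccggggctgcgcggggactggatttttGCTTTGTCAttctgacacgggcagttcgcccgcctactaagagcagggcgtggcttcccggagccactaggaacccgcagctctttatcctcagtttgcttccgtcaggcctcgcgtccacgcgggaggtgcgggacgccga
Srxn1, chr2:152105274-152105573, plus strand: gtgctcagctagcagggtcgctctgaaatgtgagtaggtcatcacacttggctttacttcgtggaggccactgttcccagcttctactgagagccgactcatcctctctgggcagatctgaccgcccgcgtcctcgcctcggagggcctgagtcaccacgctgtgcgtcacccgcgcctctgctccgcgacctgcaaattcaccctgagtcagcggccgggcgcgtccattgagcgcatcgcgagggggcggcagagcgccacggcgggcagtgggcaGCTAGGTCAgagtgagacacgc
Slc7a11, chr3:50443564-50443863, minus strand: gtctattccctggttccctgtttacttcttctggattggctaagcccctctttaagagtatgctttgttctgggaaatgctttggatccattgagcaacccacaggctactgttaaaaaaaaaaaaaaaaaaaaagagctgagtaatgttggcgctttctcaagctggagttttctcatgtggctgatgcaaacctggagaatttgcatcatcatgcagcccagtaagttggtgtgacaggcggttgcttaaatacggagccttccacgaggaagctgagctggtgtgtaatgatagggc
Sod2, chr17:13007589-13007888, plus strand: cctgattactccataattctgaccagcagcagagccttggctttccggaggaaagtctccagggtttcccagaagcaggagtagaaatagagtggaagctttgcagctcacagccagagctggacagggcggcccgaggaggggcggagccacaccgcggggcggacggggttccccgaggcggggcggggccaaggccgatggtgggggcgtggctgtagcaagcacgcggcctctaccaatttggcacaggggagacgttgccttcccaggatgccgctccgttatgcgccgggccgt
These matches are a description of the letters in the windows. The deposited data hold no measurement of NRF2 binding.

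The libraries held from 36990033 to 46401368 estimated counts. Csf1r, the gene of CD115, was present in every library, from 209 CPM to 1192 CPM (counts scaled by TMM library size, the unit of all levels here). RNA of other cells was present as well and moved with the groups. The summed level of 12 neutrophil markers ran, for libraries 1 to 3, at 465, 611 and 163 CPM in intact blood, 4345, 5483 and 21768 CPM in resected blood, 2483, 2199 and 1408 CPM in intact spleen, and 6247, 5835 and 16096 CPM in resected spleen. All 12 passed the test as higher after resection in blood and 2 of them in spleen. Over all features 7.8% were called higher and 6.11% lower in blood, and 0.78% and 0.596% in spleen. These shares stand beside each marker count given here. At an unadjusted p below 0.05, 2308 of 20135 features were higher in spleen. Of 10 peritoneal macrophage markers 8 rose in blood after resection, where their sum went from 539 to 1498 CPM in intact blood to 10514 to 14710 CPM, while the sum in spleen went from 195 to 216 CPM to 654 to 1080 CPM with none of them called. Of 11 red pulp macrophage markers 8 rose in blood, with sums of 218 to 724 CPM in intact blood and 1457 to 1971 CPM after resection. Among them Spic and Vcam1 stayed low, with means of 3.98 and 3.55 CPM in resected blood against 98.2 and 955 CPM in resected spleen. Axl (34.3 to 9.19 CPM) and Siglec1 (13.5 to 9.93 CPM) had lower means in blood after resection. Cd5l, with a mean of 529 CPM in resected blood, is in both macrophage lists. In spleen none of these 11 was called and 7 were higher at an unadjusted p below 0.05, with sums of 1399 to 2131 CPM in intact animals and 1761 to 5793 CPM after resection. Of 12 monocyte markers 4 rose and 1 fell in blood, with sums of 3678 to 9782 CPM and 13255 to 15435 CPM. Of 7 T-cell markers 6 fell in blood. Haemoglobin genes took 13.2% to 34.2% of the counts in blood. In spleen they took 0.100%, 0.0814% and 0.363% in intact animals and 0.795%, 3.47% and 0.876% after resection, where all 6 tested were higher at an unadjusted p below 0.05 and none was called. The summed level of 9 other erythroid markers in spleen was 336, 223 and 822 CPM in intact animals and 1001, 3800 and 2074 CPM after resection, with all 9 higher at an unadjusted p below 0.05 and none called. Hepatocyte markers summed to at most 1.68 CPM in any library, and Apoa1 and Apoc3 stayed at 3 counts or fewer in each. Intact blood library 3 stood apart in its summed T-cell markers (2274 CPM against 786 and 765 CPM in the other libraries of its group). Of those markers Cd8a (12.9 CPM against 70.5 and 65.3 CPM) and Cd5 (11.4 CPM against 64.0 and 54.4 CPM) were lower there, and the others higher. Intact blood library 3 also stood apart in proliferation genes (2182 CPM against 249 and 221 CPM), and library 3 of each resected group in its neutrophil markers. The main results are therefore also given without these 3 libraries. In bulk samples more cells of a type and more RNA per cell cannot be told apart. The part of cell composition in the results below was not tested.

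Per kilobase of transcript, Prdx1 was the highest of the 10 genes in every group, from 49.9 CPM per kb in intact spleen to 88.3 CPM per kb in blood after resection. The lowest of the 10 was Nqo1 in intact spleen and in blood after resection (0.590 and 0.882 CPM per kb), and Slc7a11 in intact blood and in spleen after resection (0.217 and 1.53 CPM per kb). After resection in blood Slc7a11 had rank 4 of 10 at 16.8 CPM per kb, and Sod2 had rank 2 at 75.9 CPM per kb against rank 6 in intact blood. Keap1 and Gclc spread least over the 12 libraries, from 31.7 to 57.2 CPM and from 36.3 to 63.3 CPM, while Nqo1 rested on 13 to 357 counts a library.

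**Figure D1:**
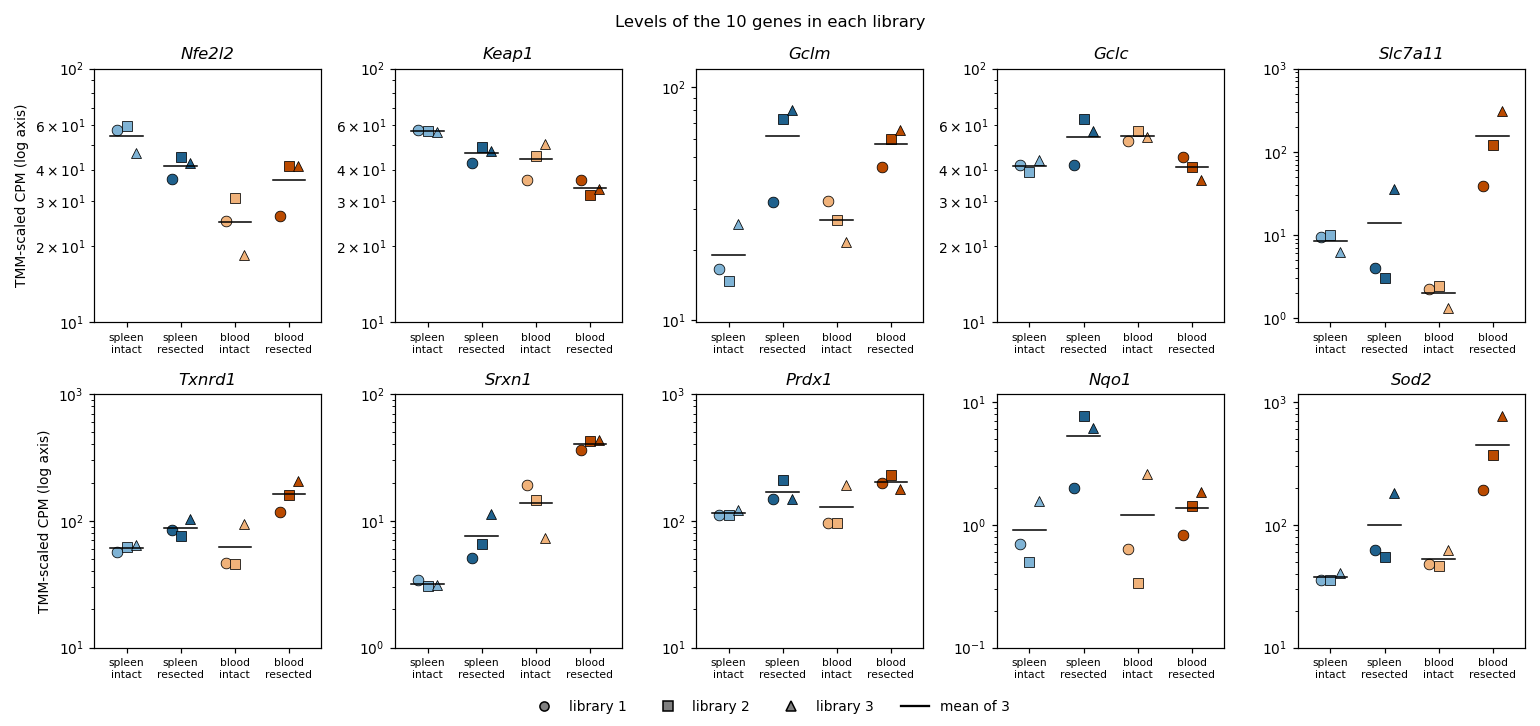
Level of each gene in TMM-scaled CPM (log axis, own range in each panel) in the 3 libraries of each of the 4 groups, with the group mean as a bar. Slc7a11 stands from 1.33 to 2.44 CPM in intact blood and from 38.5 to 306 CPM after resection, while Keap1 stays between 31.7 and 57.2 CPM in all 12 libraries.

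Resection was followed in blood monocytes by a rise of 5 of the 10 genes, Slc7a11, Sod2, Srxn1, Txnrd1 and Gclm, and by a fall of none. Called here means an absolute log2 fold change above 1 together with an adjusted p (Benjamini-Hochberg, over all 20135 features tested by edgeR's quasi-likelihood test) below 0.05. Among all features 7.8% were called higher and 6.11% lower. The libraries of the groups did not overlap for 6 of the 10 genes, 5 of them higher and Gclc lower, against 38.4% of all features. At an unadjusted p below 0.05 and with no fold limit, 7 of the 10 were higher and 2 lower, and DESeq2 also called 5 higher. The median log2 fold change of the 10 genes was 0.87, and that of all features -0.10.

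The largest difference was that of Slc7a11, the cystine-importing subunit of the cystine-glutamate exchanger, which supplies the cysteine for glutathione. Its level was 2.23, 2.44 and 1.33 CPM in intact blood and 38.5, 120 and 306 CPM after resection. All libraries after resection were above all intact ones, and they spread over 7.96 times between the lowest and the highest, in the order of their neutrophil markers. The log2 fold change was 6.28 (SE 1.15, edgeR's quasi-likelihood test, Benjamini-Hochberg adjusted p = 0.00543), and 5.09 (adjusted p = 0.00269) without the 3 libraries that stood apart. Slc3a2, the partner subunit of the exchanger, was at 189, 171 and 276 CPM in intact blood and at 284, 270 and 326 CPM after resection, where the ranges overlap.

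Sod2, the mitochondrial manganese superoxide dismutase, was at 48.2, 46.6 and 62.4 CPM in intact blood and at 193, 368 and 774 CPM after resection. The groups were far apart, and the highest library was again that with the most neutrophil marker RNA. The log2 fold change was 3.09 (SE 0.57, adjusted p = 0.00555 by edgeR's quasi-likelihood test) and was 2.57 (adjusted p = 0.00241) without the 3 libraries. For Slc7a11 and Sod2 the call held in all 12 fits that each left out 1 library.

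Of the glutathione synthesis genes, the subunits of glutamate-cysteine ligase differed in direction. Gclm, the modifier subunit, was at 32.4, 26.9 and 21.7 CPM in intact blood and at 45.7, 60.0 and 65.3 CPM after resection. Gclc, the catalytic subunit, was at 52.0, 56.9 and 53.7 CPM in intact blood and at 45.0, 41.0 and 36.3 CPM after resection. Neither pair of groups overlapped, with Gclm higher and Gclc lower after resection. Gclm rose with a log2 fold change of 1.08 (SE 0.34, adjusted p = 0.0490 by edgeR's quasi-likelihood test), close to both thresholds. Its call held in 1 of the 12 fits that left out a library, that without library 1 of resected spleen, and in the others the value ran from 0.94 to 1.27 with an adjusted p of at most 0.137. Without the 3 libraries that stood apart it was 0.83 (adjusted p = 0.201). Gclc had a log2 fold change of -0.41 (SE 0.16, adjusted p = 0.0853) and was not called.

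In the thioredoxin arm Txnrd1 and Srxn1 passed the test, and Prdx1 did not. Txnrd1, the cytosolic thioredoxin reductase, was at 46.3, 45.9 and 93.8 CPM in intact blood and at 118, 159 and 207 CPM after resection. Srxn1, sulfiredoxin, which repairs overoxidized peroxiredoxins, was at 19.3, 14.7 and 7.34 CPM in intact blood and at 36.1, 42.2 and 43.7 CPM after resection. Library 3 of intact blood was the highest of its group for Txnrd1 and the lowest for Srxn1, and neither gene's groups overlapped. The log2 fold changes were 1.38 for Txnrd1 (SE 0.30, adjusted p = 0.0112) and 1.56 for Srxn1 (SE 0.36, adjusted p = 0.0145) by edgeR's quasi-likelihood test. Txnrd1 was called in all 12 fits that left out a library but not in a fit of the 2 blood groups alone (1.38, adjusted p = 0.0640). Srxn1 was not called without library 2 of resected blood (1.52, adjusted p = 0.0520) or without library 3 (1.51, adjusted p = 0.0517).

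Prdx1, a peroxiredoxin that reduces hydrogen peroxide, was at 95.6, 96.6 and 191 CPM in intact blood and at 199, 230 and 180 CPM after resection. Only intact blood library 3 overlapped the resected libraries. The log2 fold change of 0.67 (SE 0.27, adjusted p = 0.100 by edgeR's quasi-likelihood test) was not called, whereas without that library it was 1.07 with an adjusted p of 0.00498. Nqo1, the quinone reductase often used as a marker of NRF2 activity, was at 0.633, 0.334 and 2.62 CPM in intact blood and at 0.824, 1.43 and 1.86 CPM after resection. These levels were low and overlapped, and the log2 fold change was 0.19 (SE 0.79, adjusted p = 0.891). Its sign turned without intact blood library 1 (-0.03), intact blood library 2 (-0.19) or resected blood library 3 (-0.02).

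The genes of the regulator and its inhibitor did not pass the test. Nfe2l2 was at 25.1, 30.9 and 18.4 CPM in intact blood and at 26.3, 41.3 and 41.4 CPM after resection, with overlap and a log2 fold change of 0.55 (SE 0.22, adjusted p = 0.106 by edgeR's quasi-likelihood test). Keap1 was at 36.3, 45.2 and 50.3 CPM in intact blood and at 36.3, 31.7 and 33.5 CPM after resection, with a log2 fold change of -0.38 (SE 0.13, adjusted p = 0.0691). Library 1 of each Keap1 group stood at the same level.

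**Figure D2:**
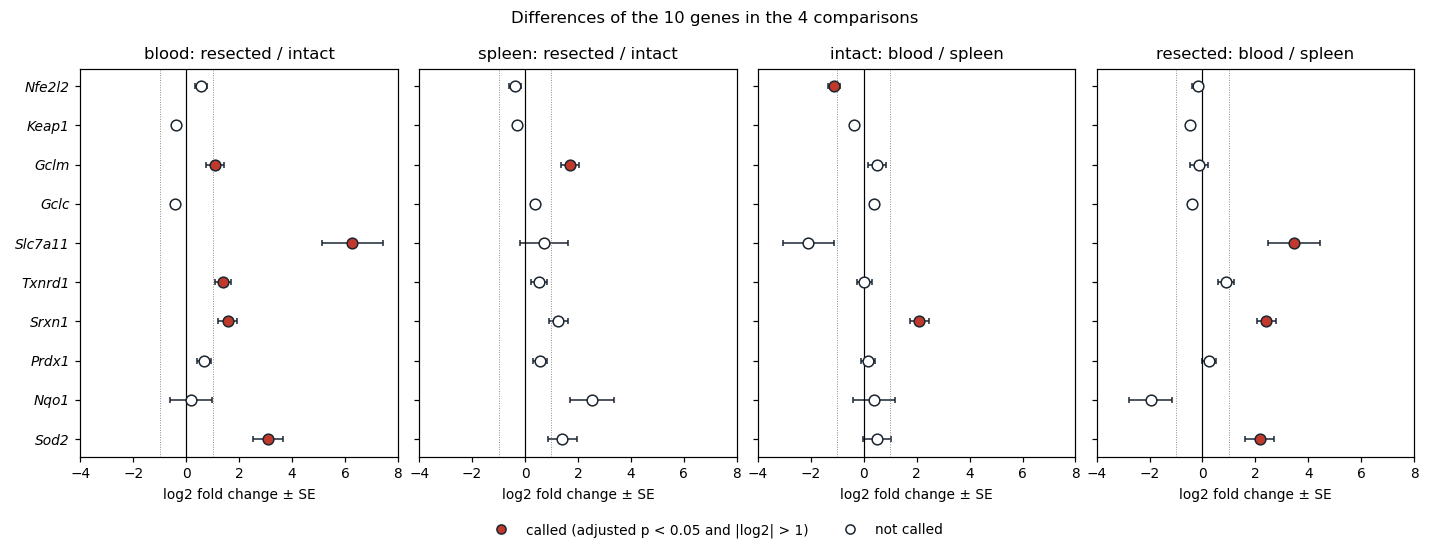
Log2 fold change of each gene with its standard error (horizontal axis) in the 4 comparisons of 2 groups, filled where the gene was called and dotted at a log2 fold change of 1 and -1. In blood after resection 5 genes were called and in spleen only Gclm.

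In splenic monocytes resection was followed by a rise of 1 of the 10 genes, Gclm, and a fall of none, against 0.78% of all features called higher and 0.596% lower. The libraries of the groups did not overlap for 8 of the 10 genes, a share to be read against 35.1% of all features. Of these 8, Gclm, Srxn1, Nqo1, Sod2, Prdx1 and Txnrd1 were higher in each resected library than in each intact one, and Keap1 and Nfe2l2 lower. At an unadjusted p below 0.05 and with no fold limit, 5 of the 10 were higher and 0 lower, and DESeq2 called 3 higher. The median log2 fold change of the 10 genes was 0.64, and that of all features 0.05.

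Gclm was at 16.6, 14.7 and 25.9 CPM in intact spleen, against 32.2, 73.0 and 80.1 CPM after resection. The groups did not overlap, with the lowest resected library close to the highest intact one. The log2 fold change was 1.70 (SE 0.35, adjusted p = 0.0431 by edgeR's quasi-likelihood test). Its call held in 2 of the 12 fits that left out a library, those without library 1 of resected spleen or library 3 of intact blood, and in the others the value ran from 1.47 to 1.97 with an adjusted p of 0.0554 to 0.209. Without the 3 libraries that stood apart it was 1.47 (adjusted p = 0.0610), and with the fit limited to the 2 spleen groups 1.69 (adjusted p = 0.0723). Gclc was at 41.6, 39.1 and 43.7 CPM in intact spleen, against 41.7, 63.3 and 56.6 CPM after resection, with overlap and a log2 fold change of 0.38 (SE 0.16, adjusted p = 0.201).

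Slc7a11 and Sod2, the genes with the largest rise in blood, were not called in spleen. Slc7a11 was at 9.47, 9.87 and 6.21 CPM in intact spleen, against 4.02, 3.03 and 35.2 CPM after resection. Libraries 1 and 2 after resection were below all intact libraries and library 3, with the most neutrophil marker RNA of the spleen libraries, was above them. The log2 fold change of 0.72 (SE 0.92, adjusted p = 0.712 by edgeR's quasi-likelihood test) became -1.27 (adjusted p = 0.450) without that library. Sod2 was at 35.8, 35.8 and 40.2 CPM in intact spleen, against 62.4, 54.2 and 181 CPM after resection. All resected libraries lay above the intact ones, and library 3 again was the highest. Its log2 fold change was 1.41 (SE 0.54, adjusted p = 0.172), and 0.65 (adjusted p = 0.147) without the 3 libraries that stood apart.

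Nqo1 had the largest log2 fold change of the 10 genes in spleen, and neither it nor Srxn1 was called. Srxn1 was at 3.43, 3.07 and 3.11 CPM in intact spleen, against 5.09, 6.53 and 11.3 CPM after resection, a log2 fold change of 1.25 (SE 0.36, adjusted p = 0.0972 by edgeR's quasi-likelihood test). Nqo1 was at 0.694, 0.501 and 1.55 CPM in intact spleen, against 1.99, 7.79 and 6.17 CPM after resection, a log2 fold change of 2.53 (SE 0.83, adjusted p = 0.126). Both were higher in all 3 resected libraries and were called by DESeq2 (adjusted p = 0.0181 and 0.0175) and, in edgeR's fit, without intact blood library 3 (1.25 with adjusted p = 0.0280 and 2.54 with adjusted p = 0.0429). The spleen libraries with the most Nqo1 after resection, 2 and 3, were also those with the most Gclm. The same libraries held the most erythroid marker RNA (3800 and 2074 CPM against 1001 CPM in library 1) and the most RNA of 8 proliferation genes (1442 and 1044 CPM against 594 CPM), and the part of these in the levels of Gclm and Nqo1 was not tested.

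The remaining genes differed little in spleen. Prdx1 was at 111, 111 and 122 CPM in intact spleen, against 150, 210 and 148 CPM after resection (log2 fold change 0.56, SE 0.27, adjusted p = 0.261 by edgeR's quasi-likelihood test). Txnrd1 was at 56.4, 62.2 and 64.6 CPM in intact spleen, against 85.0, 75.6 and 103 CPM after resection (0.53, SE 0.29, adjusted p = 0.345). Neither gene's groups overlapped, and neither was called. Nfe2l2 was at 57.0, 59.2 and 46.6 CPM in intact spleen, against 36.9, 44.7 and 42.6 CPM after resection (-0.39, SE 0.22, adjusted p = 0.352). Keap1 was at 57.2, 56.8 and 56.0 CPM in intact spleen, against 42.5, 49.2 and 47.4 CPM after resection (-0.29, SE 0.13, adjusted p = 0.247).

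The effects of resection in blood and in spleen were also compared with each other, and their difference was called for none of the 10 genes, against 0.219% of all features called higher in blood and 0.0646% lower. At an unadjusted p below 0.05, without the fold limit, 4 of the 10 passed, 3 with the larger effect in blood (Slc7a11, Nfe2l2 and Sod2) and Gclc in the opposite direction. For Slc7a11 the difference was 5.55 on the log2 scale (SE 1.39, adjusted p = 0.129 by edgeR's quasi-likelihood test). DESeq2 called it with 5.59 (adjusted p = 0.000437), as did edgeR's test without library 3 of resected spleen, with 7.55 (adjusted p = 0.0365). For Sod2 it was 1.67 (SE 0.75, adjusted p = 0.288), for Nfe2l2 0.94 (SE 0.32, adjusted p = 0.197) and for Gclc -0.79 (SE 0.22, adjusted p = 0.157). A call in blood and none in spleen thus does not show a difference between the tissues in the main test for Slc7a11, Sod2, Srxn1 or Txnrd1.

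Within a library, the ratio of the counts of a pair of genes does not depend on library size or scaling. These pairs were chosen after their values were seen. The ratio of Gclm to Gclc was 0.623, 0.473 and 0.403 in intact blood and 1.02, 1.46 and 1.80 after resection. In spleen it was 0.400, 0.377 and 0.592 in intact animals and 0.771, 1.15 and 1.42 after resection. In both tissues every resected library was above every intact one, and the mean differed by 0.927 in blood and 0.658 in spleen (n = 3 each, exact permutation test, two-sided p = 0.1, the smallest that 3 against 3 libraries allow). The ratio of Nfe2l2 to Keap1 was 0.691, 0.683 and 0.366 in intact blood and 0.723, 1.30 and 1.24 after resection (exact permutation p = 0.1). In spleen it was 0.996, 1.04 and 0.832 in intact animals and 0.868, 0.909 and 0.897 after resection, with overlap (exact permutation p = 0.4). As transcript lengths differ, a ratio of counts is not a ratio of molecules.

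**Figure D3:**
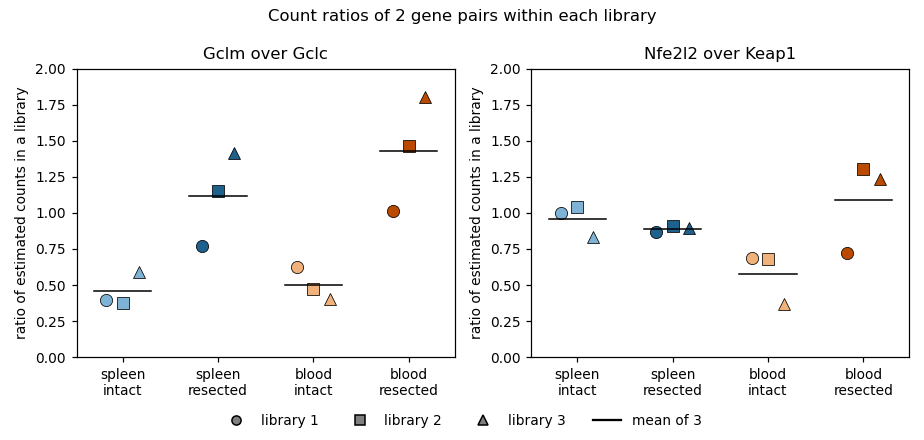
Ratio of estimated counts within each library for Gclm over Gclc (left) and Nfe2l2 over Keap1 (right), with the group means as bars and the axis starting at 0. The Gclm to Gclc ratio is at most 0.623 in the 6 intact libraries and at least 0.771 in the 6 resected ones.

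In intact animals blood and spleen differed in 2 of the 10 genes, Srxn1 and Nfe2l2, with 3.86% of all features called higher in blood and 3.49% lower. The groups did not overlap for 6 of the 10 genes, against 34.5% of all features. The median log2 fold change of the 10 genes was 0.27, and that of all features -0.02, which became 0.10 with haemoglobin genes left out. Srxn1 was higher in blood, with 7.34 CPM in the lowest blood library against 3.43 CPM in the highest splenic one, and a log2 fold change of 2.10 (SE 0.37, adjusted p = 0.00974 by edgeR's quasi-likelihood test). Its call held in all 12 fits that left out a library. Nfe2l2 was lower in blood, with 30.9 CPM in the highest blood library against 46.6 CPM in the lowest splenic one (log2 fold change -1.13, SE 0.23, adjusted p = 0.0156). It was not called without intact spleen library 1 (-0.996, adjusted p = 0.0857), intact spleen library 2 (-0.96, adjusted p = 0.0861), intact blood library 1 (-1.09, adjusted p = 0.0682) or intact blood library 3 (-0.85, adjusted p = 0.0430, under the fold limit). Slc7a11 was lower in each intact blood library than in each splenic one, with a log2 fold change of -2.09 (SE 0.97, adjusted p = 0.212), and was called in a fit of the 2 intact groups alone (adjusted p = 0.0369).

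After resection blood and spleen differed in 3 of the 10 genes, with Srxn1, Sod2 and Slc7a11 higher in blood, while 6.28% of all features were called higher and 6.87% lower. The groups did not overlap for 6 of the 10 genes, against 42.4% of all features. The median log2 fold change of the 10 genes was 0.07, and that of all features -0.14, which became -0.02 with haemoglobin genes left out. Srxn1 had a log2 fold change of 2.41 (SE 0.37, adjusted p = 0.00278 by edgeR's quasi-likelihood test), and the lowest resected blood library was at 36.1 CPM while the highest splenic one was at 11.3 CPM. Sod2 had 2.17 (SE 0.55, adjusted p = 0.0228) and Slc7a11 3.46 (SE 1.00, adjusted p = 0.0372). Sod2 was not called without resected spleen library 1 (2.02, adjusted p = 0.0761), resected spleen library 2 (1.97, adjusted p = 0.0766) or resected blood library 3 (1.62, adjusted p = 0.0637). The call of Slc7a11 held in 4 of the 12 fits that left out a library, those without library 3 of resected spleen, library 1 of resected blood or library 2 or 3 of intact blood, and the value ran from 2.62 to 5.56 over all 12. Without the 3 libraries that stood apart all 3 genes were called, at 2.86 for Srxn1, 2.37 for Sod2 and 4.599 for Slc7a11. Keap1 was lower in every blood library than in every splenic one (-0.45, SE 0.13, adjusted p = 0.0388), under the fold limit. Nqo1 was also lower in every blood library (-1.95, SE 0.82, adjusted p = 0.123 by edgeR's quasi-likelihood test) and was not called. Txnrd1 was higher in every blood library (0.88, SE 0.30, adjusted p = 0.0639) and was called only without resected blood library 1 among the fits that left out a library (1.16, adjusted p = 0.0296). Gclm was at a similar level in both tissues (-0.12, SE 0.34, adjusted p = 0.850), and its sign turned with DESeq2's size factors. Since the same 4 groups enter these comparisons, they are not independent of each other.

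Other genes of the pathway rose in blood as well. Over all features 7.8% were called higher and 6.11% lower in blood, and 0.78% and 0.596% in spleen. Of 23 tested among 25 other genes known to be under NRF2 control, 14 rose after resection in blood and none fell, with a median log2 fold change of 1.47. Those with the smallest p were Hmox1, the haem oxygenase (log2 fold change 4.002), Me1, the NADPH-producing malic enzyme (4.87), and Pgd of the pentose phosphate pathway (2.08). In spleen 3 of the 23 rose and none fell: Hmox1 (1.79), Osgin1 (3.05) and Sqstm1, the gene of the autophagy receptor p62 that binds KEAP1 (1.35). The median log2 fold change of the 23 in spleen was 1.14. At an unadjusted p below 0.05, 16 of them were higher in spleen and 0 lower, against 2308 higher and 1874 lower of all 20135 features. Hmox1 was at 52.8, 42.3 and 35.5 CPM in intact blood and at 565, 726 and 801 CPM after resection, and at 188, 320 and 425 CPM in intact spleen, against 753, 1096 and 1389 CPM after resection. It thus lay higher in every resected library of both tissues, and was lower in intact blood than in intact spleen (-2.84). Slc48a1, a haem transporter, was higher in blood than in spleen in intact animals (1.89) and after resection (1.30), as were Me1 (4.09) and Ftl1, the ferritin light chain (1.27), after resection.

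Of 15 partners, competitors and turnover factors of NRF2, 2 rose in blood, the small MAF genes Mafg (log2 fold change 1.63) and Maff (2.11). None rose in spleen, where 3 were higher and 1 lower at an unadjusted p below 0.05. Over all features 7.8% were called higher in blood and 0.78% in spleen, where 2308 of 20135 were higher and 1874 lower at that unadjusted p. The counts of these lists stand beside those shares, and small ones are not read as a result about a list. After resection Bach1, the repressor that competes for the same elements, was higher in blood than in spleen (1.39), and Btrc (-1.04), a subunit of another ubiquitin ligase for NRF2, and Mafk (-1.48) were lower. Of 16 tested glutathione genes 5 rose in blood, with Gpx3 (3.40), Glrx (2.76) and Gpx1 (1.69) at the smallest p, and Gpx3 (2.25) rose in spleen. At an unadjusted p below 0.05, 9 of the 16 were higher and 1 lower in spleen. Their median log2 fold change was 1.07 in spleen and 0.72 in blood. Gpx7 (2.14) and Gpx1 (1.53) were higher in blood than in spleen after resection. Of 16 thioredoxin, peroxiredoxin and sestrin genes 3 rose in blood, Prdx5 (2.49), Msrb1 (2.00) and Msra (1.32), and none in spleen, where 7 were higher at an unadjusted p below 0.05. Prdx6 was higher in blood than in spleen after resection (1.11). The other superoxide dismutase genes and catalase, of which 3 were tested, were called in neither tissue, with 1 of them higher in spleen at an unadjusted p below 0.05.

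Genes of enzymes that make oxidants rose in blood too, 7 of 10 tested, and none fell. Over all features 7.8% were called higher and 6.11% lower in blood, and 0.78% higher in spleen. They included Cyba (log2 fold change 1.61) and Ncf4 (1.94) of the NADPH oxidase of phagocytes, and Nos2, the inducible nitric oxide synthase. Nos2 was at 3 counts or fewer in each intact blood library and at 5.40, 11.5 and 111 CPM after resection. The mean after resection, 42.6 CPM and mostly from library 3, was 517 times the limit of counting, taken as 3 counts per library. Libraries 1 and 2 lay far less above that limit. In spleen Nos2 was the only gene of the list to rise (8.92), from at most 0.105 CPM to levels between 3.97 and 103 CPM. Cybb, the catalytic subunit of that oxidase, was higher in blood than in spleen after resection (1.22). In both tissues library 3, with the most neutrophil marker RNA, had the most Nos2.

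**Figure D4:**
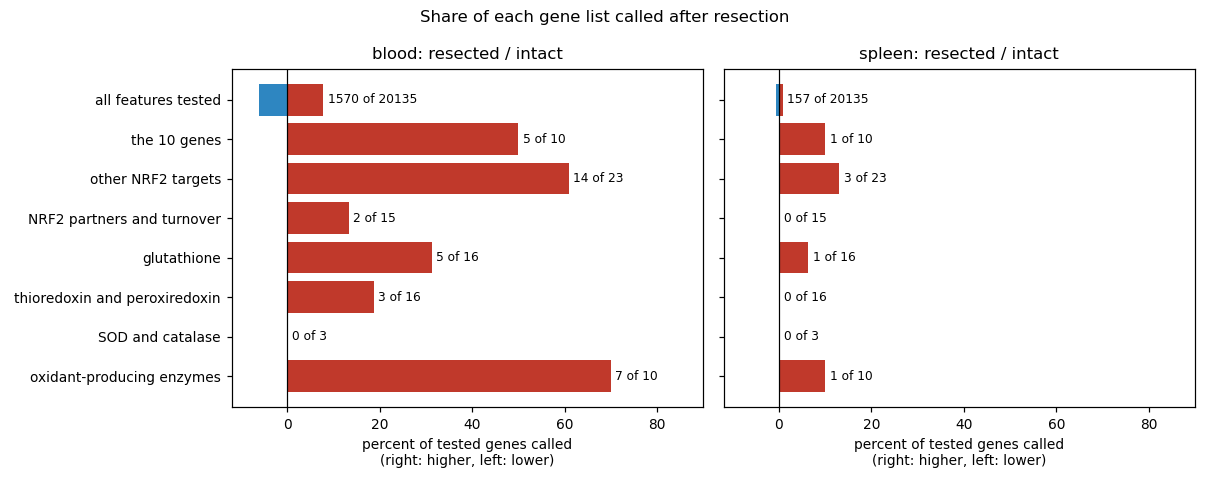
Percent of the tested genes of each list called higher (right of 0) or lower (left of 0) after resection in blood and in spleen, with the number called higher of those tested. In blood 5 of the 10 genes and 14 of 23 other NRF2 targets rose, against 1570 of all 20135 features.

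The 10 genes did not vary as one block. Of 45 Pearson correlations of log2 CPM between pairs of them over the 12 libraries 27 were positive and 5 were above 0.8. The highest were those of Txnrd1 with Sod2 (r = 0.93) and of Slc7a11 with Sod2 (r = 0.88), and the lowest was that of Keap1 with Srxn1 (r = -0.93). Among 10386 other genes with a mean of at least 5 CPM, the pattern most like Sod2 was that of Hspa13 (r = 0.99), followed by Surf4 and P4hb. The genes most like Srxn1 were Dap (r = 0.99), Riok3 and S100a1, those most like Slc7a11 were Clic1 (r = 0.98), Il1rn and Adam9, those most like Txnrd1 were Sec22b (r = 0.98), Stt3a and Marcksl1, and those most like Gclm were Slc22a4 (r = 0.94), Arhgap23 and Septin8. These correlations describe 12 libraries in 4 groups, which share group differences, depth and cell composition, and are given with no test.

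**Figure D5:**
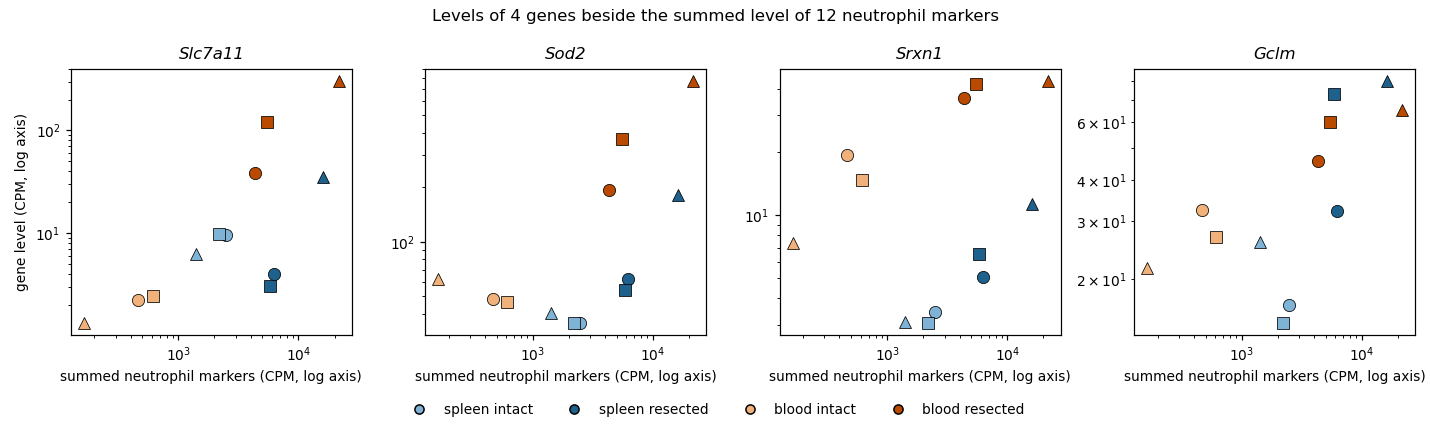
Level of Slc7a11, Sod2, Srxn1 and Gclm in each library (vertical, CPM, log axis) against the summed level of 12 neutrophil markers in the same library (horizontal, CPM, log axis), coloured by group, with circles, squares and triangles for libraries 1, 2 and 3. At neutrophil sums of 4345 to 6247 CPM, the 2 resected blood libraries had 193 and 368 CPM of Sod2 and the 2 resected spleen libraries 62.4 and 54.2 CPM.

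The plot of these genes against neutrophil markers also shows blood and spleen libraries with similar summed marker levels. Libraries 1 and 2 of both resected groups held summed neutrophil marker levels of 4345 to 6247 CPM, with the splenic ones the higher and the single markers not matched. Slc7a11 was then at 38.5 and 120 CPM in blood against 4.02 and 3.03 CPM in spleen, and Srxn1 at 36.1 and 42.2 CPM against 5.09 and 6.53 CPM. Gclm was at 45.7 and 60.0 CPM in blood against 32.2 and 73.0 CPM in spleen, with overlap. Sums of peritoneal macrophage markers differed in the same direction as Slc7a11 and Srxn1, at 10514 to 14710 CPM in resected blood against 654 to 1080 CPM in resected spleen. Haemoglobin genes did too (213499 to 517660 CPM against 6968 to 30578 CPM). So did platelet markers (812 to 899 CPM against 11.2 to 29.5 CPM). Sums of monocyte, T-cell and other erythroid markers were higher in blood. Those of dendritic cell, eosinophil and basophil markers and proliferation genes were lower. Single markers did not all go with these sums. By log2 fold change, 2 of the 9 other erythroid markers were higher in blood and 7 lower. Of the 12 monocyte markers 6 were higher and 6 lower, and of 9 dendritic cell markers 4 were higher and 5 lower. Srxn1 ran in the order of the haemoglobin share in intact blood (33.1%, 25.6% and 13.2%) but not in resected blood. The part of any of these cells in the gene levels was not tested.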

How the data were processed

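RNA was sequenced from 12 libraries, 3 in each of 4 groups named by the sample labels, each pooled from 5 mice. For each library the authors deposited a table of estimated counts, which carry no scaling to library size. The submitters' processing notes name STAR and GRCm39, while the counting tool is not given in the sources used here. The labels name a strand-specific DNBSEQ library and the paper's methods an Illumina sequencer, and how shared reads were assigned is not given. RefSeq accessions (25340 of 40274) were matched to symbols through the GRCm38.p6 gene table, 2558 unassigned transcripts (1.75% to 4.33% of a library) were left out, and counts were summed per gene and rounded. Of the 10 genes only Gclc took counts from an accession (NR_151778, 8.62%).

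Features kept by filterByExpr (20135) were fitted in R 4.3.3 with edgeR 4.0.16 (TMM factors, robust quasi-likelihood, all 12 libraries, no covariates). The paper states no test for these libraries. The SE is the absolute log2 fold change over the root of F, and correlations used log2 CPM with a prior count of 2. The script was tested on simulated data. Totals of 36990033 to 46401368 counts leave counting error largest for Nqo1 (13 to 357 counts) and for Slc7a11 in intact blood (61 to 95 counts), and floors of 3 counts cover counting error only. Chi-square tests between replicates gave at least 21.3 per degree of freedom, more than counting error gives, so none was the same library counted again. The tests cannot tell separate preparations of a shared pool from separate pools. Nothing says that the pools came from separate experiments, so p-values measure the spread between these libraries.

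Replicate numbers are shared by the groups, and whether they pair the libraries is not stated. Correlations of deviations between libraries of the same number were -0.05 to 0.19, highest between the resected tissues (0.04, 0.13 and 0.19). They were not compared with those of libraries of different numbers, so they do not settle it. The genes named are the 10, up to 3 called genes per list, comparison and direction with the smallest p, and the 3 genes most like each one called after resection. Beside this rule Csf1r, Slc3a2, Apoa1 and Apoc3 were named for their identity, and Cd8a and Cd5 for their direction against the summed T-cell markers. Of the red pulp macrophage markers, Spic and Vcam1 were named for their low level in blood and Axl and Siglec1 for their direction. Cd5l was named for its place in both macrophage lists. The members, lists and tests were chosen with earlier results of these data known. Alternatives were RLE factors, DESeq2 1.42.0, other filters and limits, entries as deposited, haemoglobin genes left out, a replicate block, only the groups compared, each library left out, and, added after seeing the data, 3 libraries left out together. Transcript lengths came from the GENCODE M21 annotation.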

Additional observations from a re-analysis of the deposited data

How the results depend on the processing

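Counts of the 10 genes called moved most in spleen. There the 1 gene called after resection became 3 with DESeq2, 0 with no low-count filter, 4 with unadjusted p, 0 in a fit of only the 2 groups and 0 without the 3 libraries that stood apart. Leaving out 1 library gave 0 to 3 genes in spleen, 3 to 5 in blood, where the fits without library 2 or 3 of resected blood gave 3, 1 to 2 between tissues of intact animals, 1 to 4 between tissues after resection, and 0 to 1 for the difference of the effects. Without the 3 libraries, 5 genes were called in blood, of which 4 were the same, with Gclm lost and Prdx1 gained (1.16, adjusted p = 0.00455 in edgeR's test). Between tissues the count was then 1 in intact animals, and with only the 2 resected groups 1 after resection. The difference of the effects gave 1 gene with DESeq2, 2 with unadjusted p and 2 without the 3 libraries, Slc7a11 (6.36) and Txnrd1 (1.19). The causes were not tested.

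Whether the replicate numbers pair the samples is not known. With the replicate number as a block 4 genes were called in blood, 0 in spleen, 2 between intact tissues, 3 between resected tissues and 0 for the difference, and Slc7a11 in spleen (-0.0294) and Txnrd1 between intact tissues (-0.0543) changed sign.

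Signs of uncalled differences also turned for Gclm between resected tissues (0.000376 with RLE factors and with DESeq2), and without the 3 libraries for Slc7a11 in spleen (-1.27), Nqo1 (-0.81), Txnrd1 (-0.30) and Prdx1 (-0.15) between intact tissues, Gclm between resected tissues (0.11) and Keap1 in the difference of the effects (0.0427). Over the fits that each left out 1 library, the differences whose sign turned ran from -0.19 to 1.49 for Nqo1 and from -1.27 to 1.20 for Slc7a11 after resection in blood and in spleen respectively. Between intact tissues they ran from -0.81 to 1.10 for Nqo1, from -0.30 to 0.24 for Txnrd1 and from -0.15 to 0.36 for Prdx1. Between resected tissues they ran from -0.33 to 0.21 for Gclm and from -0.20 to 0.10 for Nfe2l2, and in the difference of the effects from -0.0035 to 0.51 for Prdx1 and from -0.15 to 0.0167 for Keap1. No called difference changed sign in any of these fits.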
